A study of Mus musculus with 6 samples.

Results

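The smooth muscle contractile genes described here are 10 genes, Tagln, Myh11, Cnn1, Smtn, Mrvi1 (also called Irag1), Rgs5, Mylk, Synpo2, Prkg1 and Cald1, out of 23290 entries in the deposited table. Each was found by matching the RefSeq transcript identifiers of an entry to the mouse symbol, and each of the 10 symbols had 1 entry. All 10 passed the authors' criteria for testing. Expression was measured by RNA-seq in mouse hearts at stage E10.5, on a C57BL/6 background. The 3 mutant hearts carried the genotype Nkx2-5Cre/+,Casz1f/f, in which both alleles of the zinc finger transcription factor gene Casz1 are floxed and Cre recombinase is expressed from 1 Nkx2-5 allele. The 3 control hearts carried Nkx2-5+/+,Casz1f/+, with 1 floxed Casz1 allele and no Cre. Cre therefore acts in cells that express, or descend from cells that expressed, Nkx2-5, and the genotypes differ at the Nkx2-5 locus as well as at Casz1. The study used this comparison to look for genes of the heart that respond to loss of Casz1.

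In smooth muscle, calcium and calmodulin activate myosin light chain kinase, which phosphorylates the regulatory light chain so that smooth muscle myosin can pull on actin. Calponin, caldesmon and transgelin bind the actin filaments, and cGMP-dependent protein kinase relaxes the cell by acting on calcium release and on myosin phosphatase. Many of these genes are driven by serum response factor (SRF) with its cofactor myocardin through a DNA element called the CArG box. In the mouse embryo several of them are not restricted to smooth muscle, since the early heart tube itself transiently expresses genes such as Tagln.

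Expression was given as FPKM, fragments scaled by transcript length and by library size, with 1 value per genotype that pools its 3 hearts. The values of single hearts, the spread between them and the sequencing depth are therefore unknown here, and whether the hearts of the genotypes overlap cannot be seen. Every FPKM, log2 fold change (mutant over control), p and q below is from the authors' deposited table. The q is Cuffdiff's p adjusted over 15387 tested entries, and an entry was called at q under 0.05. Standard errors (SE) were derived from the authors' test statistic and are on the log2 scale, and the 95% intervals follow from them. In whole hearts, a change in the number of cells that express a gene and a change in RNA per cell cannot be told apart. Casz1 itself stood at 4.68 FPKM in mutant and 6.61 FPKM in control hearts in the authors' deposited table (change in log2 -0.50, SE 0.306, q = 1.00), so the targeted gene was not called. That value covers the whole gene model, and the floxed part is not named in the labels. Heart muscle transcripts dominated both genotypes, with the cardiac light chains Myl7 at 7496 FPKM in mutant and 5080 FPKM in control hearts and Myl2 at 3942 FPKM in mutant and 5549 FPKM in control hearts.

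The 10 genes did not move as a block. In the authors' deposited table Mrvi1 rose 3.47-fold in mutant hearts and was the only member called, 1 of 10, where 0.422% of all tested entries were called in either direction 0.305% were called higher and 0.117% lower. Tagln, Myh11 and Rgs5 were also higher in mutant hearts by 2.30-fold, 2.86-fold and 2.17-fold, with unadjusted p under 0.05 and without passing q. With Mrvi1 that made 4 members with an unadjusted p under 0.05 and higher, where 1.99% of all tested entries were higher with such a p and 3.17% had one in either direction. No member had such a p and lay lower, where 1.18% of entries did. The members and the lists below were chosen with earlier results of these data known, so counts beside these shares are descriptive and no test of enrichment. The remaining 6 had intervals that included 0, and 3 of these 6, Cnn1, Smtn and Synpo2, had lower values in mutant hearts. The median log2 fold change of the 10 was 0.40, with 7 of 10 above 0, while over all tested entries the median was -0.02 and 45.4% lay above 0.

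**Figure D1:**
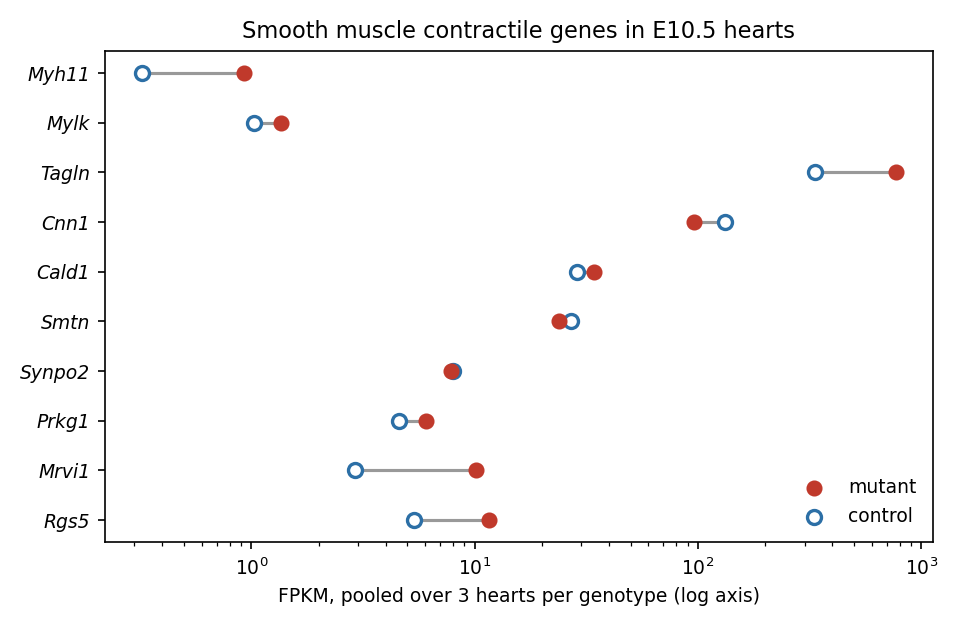
FPKM of each of the 10 genes on a log axis, with filled points for mutant and open points for control hearts, each pooling 3 hearts with no error per genotype. Mrvi1, Myh11, Tagln and Rgs5 show the wide gaps, and Synpo2 the narrowest, at 7.83 FPKM in mutant and 8.01 FPKM in control hearts.

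Mrvi1 encodes the IP3 receptor-associated substrate of cGMP kinase, through which the kinase lowers calcium release in smooth muscle. It stood at 10.1 FPKM in mutant and 2.92 FPKM in control hearts in the authors' deposited table. Cuffdiff's test in the authors' deposited table gave a log2 fold change of 1.79 with 95% interval 1.19 to 2.40 (SE 0.307, p = 5.36e-09, q = 5.9e-06). Among 12150 tested entries with at least 1 FPKM in either genotype and a finite fold, 0.329% had a log2 fold change as high or higher. Mrvi1 ranked 6247 by FPKM among tested entries in mutant hearts and 10091 in control hearts. In mm10 the gene lies on the minus strand of chromosome 7 from 110868257 to 110982909. Its entry in the authors' deposited table runs from 110868267 to 110982095 and joins 2 RefSeq transcripts. In the GENCODE annotation, which is later than the authors' gene models, these have 21 exons and a start at 110982461, beyond the entry's end, and 20 exons and a start at 110946187. The pooled value does not separate the transcripts. One further entry, Gm16336, shares the locus and was too low to be tested, and whether the authors counted reads by strand is not stated in the sources that were used.

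The sequences before the Mrvi1 start sites are shown because Mrvi1 was the called member and has alternative starts, beside that of Rgs5, the member with the next lowest p. Each holds the 250 bases before a RefSeq transcript start (GRCm38.p6, the assembly behind mm10), written 5′ to 3′ on the strand of the gene, and capitals mark letters that differ from a CArG box at 1 position.
Mrvi1 distal start, chr7:110982462-110982711, minus strand: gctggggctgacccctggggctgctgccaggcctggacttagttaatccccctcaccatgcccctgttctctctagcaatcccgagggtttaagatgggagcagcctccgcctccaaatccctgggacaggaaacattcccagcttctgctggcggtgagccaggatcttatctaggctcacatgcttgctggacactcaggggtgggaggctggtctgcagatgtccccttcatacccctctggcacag
Mrvi1 proximal start, chr7:110946188-110946437, minus strand: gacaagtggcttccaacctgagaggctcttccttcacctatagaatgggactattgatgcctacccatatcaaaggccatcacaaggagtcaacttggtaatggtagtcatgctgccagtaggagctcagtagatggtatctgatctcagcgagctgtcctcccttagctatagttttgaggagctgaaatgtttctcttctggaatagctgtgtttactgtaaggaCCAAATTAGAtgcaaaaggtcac
Rgs5 start, chr1:169655251-169655500, plus strand: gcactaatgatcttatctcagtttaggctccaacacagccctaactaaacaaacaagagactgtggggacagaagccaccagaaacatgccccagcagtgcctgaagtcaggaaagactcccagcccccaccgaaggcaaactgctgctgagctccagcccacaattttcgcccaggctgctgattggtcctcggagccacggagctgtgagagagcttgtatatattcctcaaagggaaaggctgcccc
The marked letters of the proximal Mrvi1 window begin 23 bases before its start. RefSeq windows of 300 bases, 250 before and 50 after a start, were matched for 8 of the 10 members, 11 windows in all (Mrvi1, Rgs5, Cnn1, Smtn, Mylk, Synpo2, Prkg1 and Cald1), and not for Tagln and Myh11. The full CArG box occurred in 0 of the 11 windows, against 1.63% of 32851 windows of all genes. The NKE, the motif TNAAGTG bound by Nkx2-5, occurred on either strand in 0 of the 11 windows and in 11.5% of all windows. A CArG box with 1 letter off, a search added after the full box gave no match, occurred in 2 of the 11 windows, 1 of Mrvi1 and 1 of Cald1, and in 19.9% of all windows. These counts describe letters in short windows and say nothing of binding.

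The other members of the cGMP arm gave smaller differences. Prkg1, the type I cGMP-dependent kinase that phosphorylates the Mrvi1 product, stood at 6.05 FPKM in mutant and 4.58 FPKM in control hearts in the authors' deposited table (change in log2 0.40, SE 0.338, 95% interval -0.26 to 1.06, p = 0.236, q = 1.00). It was not called. The FPKM of Mrvi1 was 1.67 times that of Prkg1 in mutant hearts and 0.637 times in control hearts, so the order of these genes by level differed between the genotypes. Itpr1, the IP3 receptor to which the Mrvi1 product binds and a gene chosen after its value was seen, stood at 8.75 FPKM in mutant and 6.89 FPKM in control hearts of the authors' deposited table (log2 0.35, SE 0.290, p = 0.234). Prkg1 spans chromosome 19 from 30564487 to 31765268, and its entry joins transcripts from 2 start sites, which encode the alpha and beta forms of the kinase.

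Rgs5, a GTPase-activating protein for G protein subunits and a common marker of pericytes, stood at 11.6 FPKM in mutant and 5.36 FPKM in control hearts in the authors' deposited table. By Cuffdiff, the authors' deposited table has a log2 fold change of 1.12 with 95% interval 0.42 to 1.81 (SE 0.354, p = 0.00160, q = 0.196), so the interval lay above 0 and the adjusted test was not passed. Of entries with at least 1 FPKM, 0.815% lay as high or higher. Rgs5 lies on chromosome 1 from 169655501 to 169695813. Other pericyte and mural cell genes were not called in the authors' deposited table, 0 of 10 tested against 0.422% of all tested entries, although 8 of the 10 had log2 fold changes above 0. This list shares Notch3 and Rgs4 with other lists used here. Their median log2 fold change was 0.17, and their summed level was 81.3 FPKM in mutant and 85.9 FPKM in control hearts. The most abundant of them were Mcam, an adhesion molecule of the vessel wall, at 48.5 FPKM in mutant and 58.0 FPKM in control hearts, and the proteoglycan gene Cspg4, at 8.82 FPKM in mutant and 8.13 FPKM in control hearts. Abcc9 failed the authors' test and Higd1b was too low for it.

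Tagln and Cnn1, which encode actin-binding proteins, were the most abundant of the 10 in both genotypes, and they differed in direction. Tagln, transgelin, an actin-bundling protein of the calponin family, stood at 767 FPKM in mutant and 333 FPKM in control hearts in the authors' deposited table. It ranked 117 among tested entries in mutant hearts and 259 in control hearts. The difference of 433 FPKM corresponds, by Cuffdiff in the authors' deposited table, to a log2 fold change of 1.20 with 95% interval 0.36 to 2.05 (SE 0.431, p = 0.00526, q = 0.411). Of entries with at least 1 FPKM, 0.733% lay as high or higher, yet Tagln was not called. Tagln lies on chromosome 9 from 45929628 to 45936058 in 5 exons. Its locus in the table also holds Pcsk7 and Rnf214, whose log2 fold changes were -0.11 and 0.01.

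Cnn1, basic calponin, which binds actin and slows the myosin ATPase, lay the other way. It stood at 96.0 FPKM in mutant and 131.6 FPKM in control hearts in the authors' deposited table (change in log2 -0.45, SE 0.557, 95% interval -1.55 to 0.64, p = 0.415, q = 1.00). Its SE was the largest of the 10. Among 587 tested entries within 1.5 times its mean FPKM the median SE was 0.304, and 6.30% had an SE as large. Cnn1 lies on chromosome 9 from 22099221 to 22109221, in a locus of the table with 10 other tested entries whose log2 fold changes ran from -0.15 to 0.30, with 0 called. The ratio of Tagln to Cnn1 FPKM was 7.98 in mutant and 2.53 in control hearts, a difference that was not tested.

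Tagln carried the summed level of the set. The 10 genes summed to 959 FPKM in mutant and 543 FPKM in control hearts in the authors' deposited table, or 0.179% and 0.104% of the FPKM of all tested entries in mutant and in control hearts. Transgelin alone made up 80.0% of that sum in mutant hearts and 61.4% in control hearts. Without it the other 9 summed to 192 FPKM in mutant and 210 FPKM in control hearts, a difference of the opposite sign.

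Cald1, caldesmon, which blocks myosin from actin until calcium rises, stood at 34.2 FPKM in mutant and 28.7 FPKM in control hearts in the authors' deposited table (change in log2 0.25, SE 0.289, 95% interval -0.32 to 0.82, q = 1.00). The entry holds 1 transcript and starts at 34709444 on chromosome 6, inside the gene's span of 34598495 to 34775469, so transcripts from the upstream start are not modelled. Smtn, smoothelin, a protein of contractile smooth muscle filaments, stood at 23.9 FPKM in mutant and 27.0 FPKM in control hearts (log2 -0.17, SE 0.284, 95% interval -0.73 to 0.38, q = 1.00). Smtn lies on chromosome 11 from 3517522 to 3539292. Synpo2, myopodin, an actin-bundling protein of muscle cells, gave the smallest difference, at 7.83 FPKM in mutant and 8.01 FPKM in control hearts (log2 -0.03, SE 0.290, 95% interval -0.60 to 0.53, q = 1.00). Synpo2 lies on chromosome 3 from 123076519 to 123236168. For these 3 genes the intervals reach no further than 0.82 above and 0.73 below 0 on the log2 scale.

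**Figure D2:**
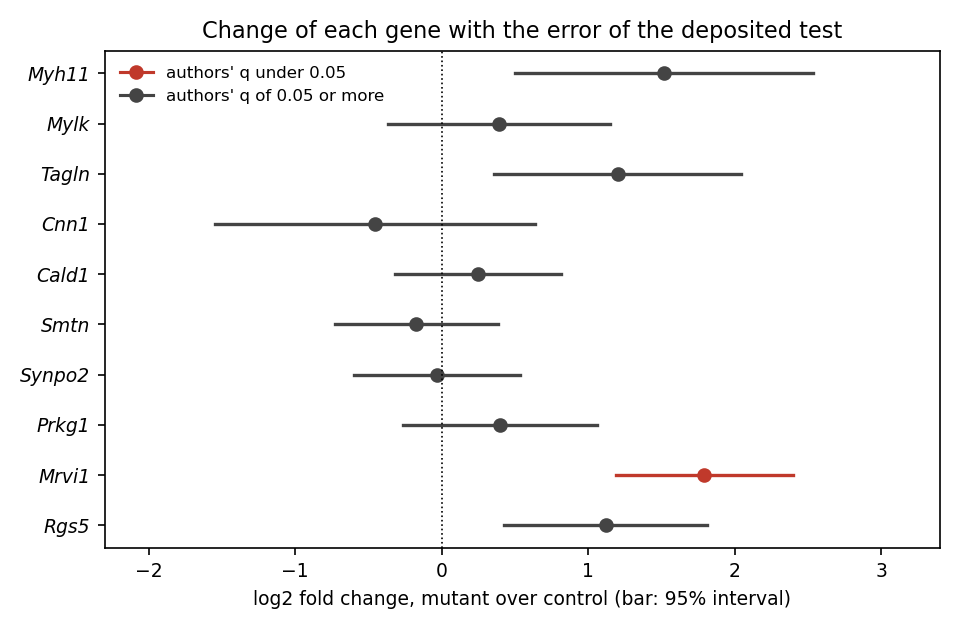
Log2 fold change of each gene, mutant over control, with its 95% interval from the implied SE, in red where the authors' q was under 0.05. The intervals of Mrvi1, Myh11, Tagln and Rgs5 lie above 0, and that of Cnn1 is the widest, from -1.55 to 0.64.

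The smooth muscle motor and the light chain kinase were the scarcest members. Myh11, smooth muscle myosin heavy chain, stood at 0.931 FPKM in mutant and 0.326 FPKM in control hearts in the authors' deposited table. Both values are under 1 FPKM, and Myh11 was the only member of which this holds. In log2 terms the authors' deposited table puts the difference at 1.52 with 95% interval 0.50 to 2.53 (SE 0.518, p = 0.00346, q = 0.322 by Cuffdiff), and with 1 FPKM added to both values it was 0.54. Myh11 lies on chromosome 16 from 14194527 to 14292188. Mylk, myosin light chain kinase, stood at 1.35 FPKM in mutant and 1.03 FPKM in control hearts of the authors' deposited table (log2 0.39, SE 0.385, 95% interval -0.36 to 1.15, p = 0.310, q = 1.00). Its entry models 1 transcript and runs from 34784950 to 35002434 on chromosome 16, within a RefSeq gene span of 34745199 to 35002436. Myh11 and Mylk thus stood near or under 1 FPKM in each genotype, while Tagln, Cnn1, Cald1 and Smtn were at 23.9 FPKM or more.

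Related genes outside the set showed how small the motor's share was. Non-muscle myosin heavy chains were far more abundant, with Myh10 at 70.4 FPKM in mutant and 65.1 FPKM in control hearts and Myh9 at 46.0 FPKM in mutant and 43.1 FPKM in control hearts. Myh10 was thus 75.7 times the level of Myh11 in mutant hearts and 200 times in control hearts. The cardiac light chain kinase Mylk3 was 32.8 times the level of Mylk in mutant and 69.1 times in control hearts, at 44.3 FPKM in mutant and 71.2 FPKM in control hearts of the authors' deposited table (log2 -0.68, SE 0.286, p = 0.0167, q = 0.873 by Cuffdiff). Among relatives of transgelin and calponin that are not specific to smooth muscle, Tagln2 and Cnn3 had log2 fold changes close to 0. Tagln2 stood at 176 FPKM in mutant and 179 FPKM in control hearts and Cnn3 at 173 FPKM in mutant and 161 FPKM in control hearts. Cnn2 held too many fragments for the authors' test and has no usable value. Tagln3, a neuronal transgelin, was at 5.25 FPKM in mutant and 11.8 FPKM in control hearts of the authors' deposited table (log2 -1.17, SE 0.390, p = 0.00267, q = 0.270), the opposite direction to Tagln. Of 16 tested paralogs 0 were called, against 0.422% of all tested entries, 9 lay above 0 and the median log2 fold change was 0.03.

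**Figure D3:**
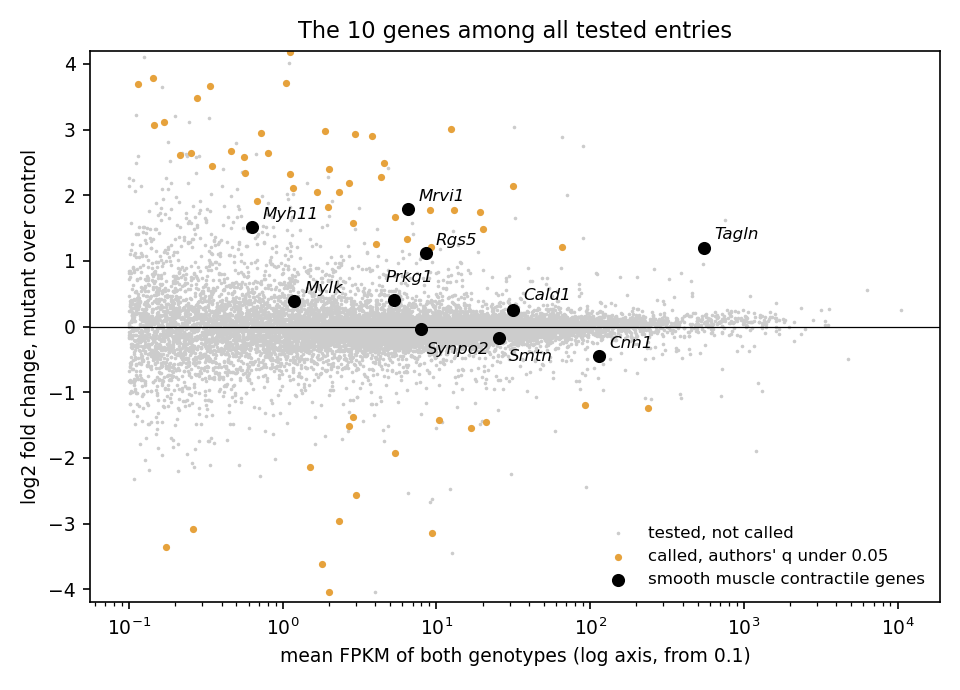
Log2 fold change against the mean FPKM of both genotypes (log axis) for tested entries, in grey where not called and in orange where called, with the 10 genes in black. Entries under 0.1 FPKM or beyond a log2 of 4.2 are not drawn. Mrvi1 lies among called entries, and Tagln is far from the bulk of entries of its level without being called.

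Among other genes of the contractile filament and its adhesions, 3 of 28 tested members rose in the authors' deposited table and 0 fell, where 0.305% of all tested entries rose and 0.117% fell. Itga7, the laminin-binding integrin alpha 7 of muscle cells, rose to 5.21 FPKM in mutant hearts, against 0.684 FPKM in control hearts (log2 2.93, SE 0.399, q = 6.17e-10 by Cuffdiff). The enteric smooth muscle actin Actg2 was at 7.72 FPKM in mutant and 1.37 FPKM in control hearts and the leiomodin Lmod1 at 14.2 FPKM in mutant and 4.12 FPKM in control hearts, both called. The list as a whole had a median of -0.05, and 17 of 28 lay below 0. Its most abundant tested members were the tropomyosin Tpm1, at 2280 FPKM in mutant and 2458 FPKM in control hearts, and vimentin Vim, at 696 FPKM in mutant and 672 FPKM in control hearts. Acta2, smooth muscle alpha actin, held too many fragments for the authors' test and has no usable value.

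Of 22 tested genes in the list of light chain, light chain phosphorylation and cGMP genes, 0 passed q and 0 reached an unadjusted p under 0.05. Among all tested entries 0.422% and 3.17% did, so a list of this size would hold few or none at those shares. Their median log2 fold change was 0.01. Myl9, the smooth muscle regulatory light chain, stood at 947 FPKM in mutant and 1229 FPKM in control hearts in the authors' deposited table (change in log2 -0.38, SE 0.391, q = 1.00). Myl6, the essential light chain, stood at 1004 FPKM in mutant and 978 FPKM in control hearts. The largest differences in the list were log2 -0.38 for Myl9, or 1.30-fold lower in mutant hearts, and log2 0.35 for Itpr1, or 1.27-fold higher. Both were under the smallest called change of any entry, 2.29-fold.

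The transcription factors that act on CArG boxes were not called either. Srf stood at 32.0 FPKM in mutant and 37.5 FPKM in control hearts (log2 -0.23, SE 0.284), and myocardin, Myocd, at 9.48 FPKM in mutant and 10.4 FPKM in control hearts (log2 -0.14, SE 0.295), both from the authors' deposited table. The myocardin-related factors had log2 fold changes of 0.23 for Mkl1 (SE 0.378) and 0.34 for Mkl2 (SE 1.07). In the list of 18 SRF cofactors, growth factor and Notch pathway genes 0 were called, against 0.422% of all tested entries, 2 had an unadjusted p under 0.05, both higher, and the median was 0.05.

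Markers of heart cell types and of other tissues were read in the same pooled comparison, in which 0.305% of all tested entries rose and 0.117% fell. Of 10 foregut epithelial markers 6 rose in the authors' deposited table (Epcam, Cdh1, Shh, Foxa1, Cldn6 and Krt8) and all 10 lay above 0, with a median of 2.15. Their summed level was 176 FPKM in mutant and 82.8 FPKM in control hearts. Most of that sum came from the keratin genes Krt8 and Krt18. Krt8 stood at 91.5 FPKM in mutant and 39.7 FPKM in control hearts, and Krt18 at 65.2 FPKM in mutant and 39.0 FPKM in control hearts. Of 10 splanchnic mesoderm markers 1 rose, the forkhead gene Foxf1a, to 3.75 FPKM in mutant hearts, against 0.909 FPKM in control hearts. All 10 lay above 0, the sum was 96.2 FPKM in mutant and 74.3 FPKM in control hearts, and the median was 1.06. Most of that sum came from the 2 most abundant members, Gata6 and Tbx5, which lay close to 0. Gata6 stood at 38.2 FPKM in mutant and 36.9 FPKM in control hearts (log2 0.05). Tbx5 stood at 18.2 FPKM in mutant and 16.3 FPKM in control hearts (log2 0.16). Whether the transcripts of Gata6 and Tbx5 came from splanchnic mesoderm or from cells of the heart was not tested. None of the foregut and splanchnic mesoderm markers was at 0 in either genotype, and 2 of the foregut and 3 of the mesoderm markers were under 1 FPKM in both. Of 15 cardiomyocyte markers, Myh6, Myh7 and Actc1 held too many fragments for the authors' test and are left out of the values here. The 12 tested markers summed to 23566 FPKM in mutant and 23349 FPKM in control hearts, with 0 of 12 called, 9 of 12 below 0 and a median of -0.16. Myl7 was higher by 2415 FPKM and weighs heavily in that sum. Nkx2-5, whose locus differs between the genotypes, was the 1 cardiomyocyte marker with an unadjusted p under 0.05, at 82.9 FPKM in mutant and 143.0 FPKM in control hearts of the authors' deposited table (log2 -0.79, SE 0.295, p = 0.00755, q = 0.536 by Cuffdiff). All 8 endothelial markers lay below 0, with 0 called and a median of -0.17. The 6 tested skeletal muscle markers split, with 3 higher and 3 lower, all with an unadjusted p under 0.05. The 3 higher, Myh3, Myog and Myf5, were under 1 FPKM in both genotypes, and the 3 lower were Acta1, Tnni2 and Ckm. Myod1, Myf6, Pax3 and Pax7 were too low to be tested. Which cells the transcripts of Acta1, Tnni2 and Ckm came from was not tested. Of the 6 markers 1 rose, the embryonic myosin Myh3, which remained low at 0.213 FPKM in mutant and 0.0165 FPKM in control hearts. Another 1 fell, the skeletal actin Acta1, at 142 FPKM in mutant and 334 FPKM in control hearts. Myog, a myogenic transcription factor gene chosen after its value was seen, was also low, at 0.416 FPKM in mutant and 0.00534 FPKM in control hearts, and was not called. The list summed to 170 FPKM in mutant and 388 FPKM in control hearts, most of it Acta1. Myf5 was listed at 0 in the controls. The part of these tissues in the values of Mrvi1, Tagln, Myh11 and Rgs5 was not tested, since the table has no values per heart.

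**Figure D4:**
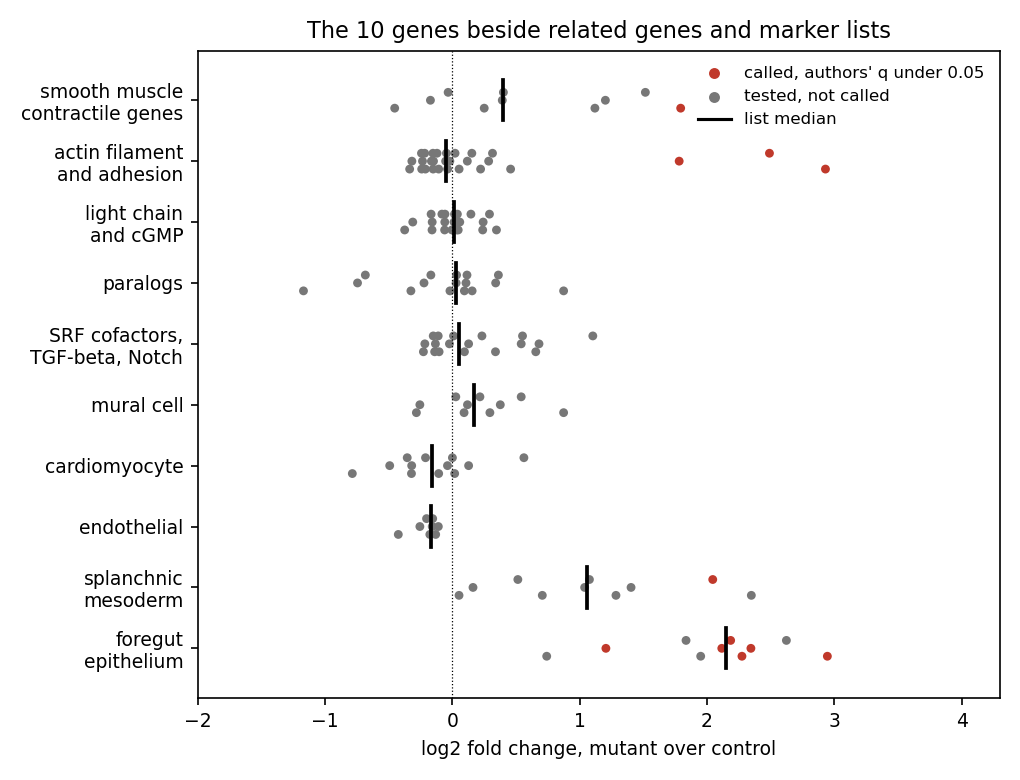
Log2 fold change of each tested gene in the set of 10 and in the related and marker lists, in red where called, with a black bar at each list's median. The skeletal muscle list, with a median of -0.98, is not drawn. The medians of the foregut and splanchnic mesoderm lists, 2.15 and 1.06, lie above that of the 10 genes, 0.40, and the light chain and paralog lists are centred near 0.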

How the data were processed

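RNA was extracted from single E10.5 hearts, per the labels' protocols. Cufflinks 2.1.1 and Cuffdiff, the aligners TopHat2 2.0.8 and Bowtie2 2.1.0.0, and the utilities SAMtools 0.1.19.0 and FastQC 0.10.1 are named in the submitters' processing notes, with the build mm10. FPKM values were computed by the authors and deposited as 1 value per genotype. The log2 fold change, the test score (Cuffdiff's test statistic), the p-value and the q-value were deposited beside them, per the file headers. A two-sided normal tail of the statistic gave the deposited p within 1e-05 in each of 15301 entries tested with a finite fold. The SE was therefore the size of the log2 fold change divided by that of the statistic. The deposited q matched a recomputed Benjamini-Hochberg adjustment within 1e-05 for 15379 of 15387 tested entries. Depth per sample is unknown, and no pseudocount or filter was added to the reported values. RefSeq GRCm38.p6 named 22999 of 23290 entries, and exon counts and transcript starts came from GENCODE transcripts matched by RefSeq identifier. Entries that overlap or have close copies may share reads. The table also holds 7742 entries too low to test, 96 failed and 65 with too many fragments, all left out of the tests.

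The members, the gene lists and the rule for named genes were chosen with earlier results of these data known. Under the rule all 10 members and every called gene of each list were named. It also allowed the 2 most abundant tested members of each list that were not called, paralogs and SRF cofactors. Not all of these were named, and other named genes were chosen after their values were seen. The interval and adjustment steps were tested on simulated data. Alternatives covered thresholds, pseudocounts, centring, scaling and filters. Python 3.11.15, numpy 2.4.6, pandas 2.3.3, scipy 1.17.1 and matplotlib 3.10.9 were used.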

Additional observations from a re-analysis of the deposited data

How the results depend on the processing

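Mrvi1 was the called member under q under 0.1 and 0.01, mean FPKM minimums of 1 and 5, and an adjustment recomputed over entries that reached 1 FPKM in a genotype; at an unadjusted p under 0.05 the count was 4. Over all entries the count of 65 became 41 at q under 0.01 and 487 at an unadjusted p under 0.05. Of 50 alternative member fold changes 49 moved by less than their SE and 0 changed sign. Most of these alternatives could move little. Summing over the entries of a symbol changes nothing where each member has 1 entry. Centring and rescaling shift every gene by the same small amount, and a pseudocount cannot change a sign. The count is thus no measure of robustness. With 1 FPKM added, Myh11 had a log2 fold change of 0.54. The members' median ran from 0.29 to 0.41. Rescaling each genotype to the same FPKM sum shifted every log2 fold change by -0.032. The median of the light chain and cGMP list was then -0.017 and that of the paralogs -0.0013. Both were near 0 as deposited, at 0.014 and 0.030, so this shift changed their sign. Among paralogs that reached 1 FPKM in a genotype the median was -0.020. That filter left out Myh14, Smtnl1 and Prkg2, which all lay above 0. With 1 FPKM added, the splanchnic mesoderm and foregut medians were 0.53 and 0.94.

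No paired analysis was possible because the table holds 1 pooled value per genotype, and for the same reason no replicate was left out. Unknown depth and 3 hearts per genotype limit the precision of all values.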
